A study of Mus musculus with 25 samples.

Results

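The transcripts described here are 10 genes of growth arrest in mouse melanomas: Trp53, which encodes the tumour suppressor p53, 6 genes that p53 switches on (Cdkn1a, Mdm2, Bbc3, Gdf15, Ccng1 and Phlda3) and 3 further inhibitors of the cell cycle (Cdkn1b, Cdkn2a and Cdkn2b). They were chosen by gene symbol among the 55450 genes of the count table, and all 10 were among the 18031 genes that passed the filter on low counts. Bulk RNA sequencing was available for 25 tumours, 1 per mouse, grown in C57BL/6 mice from the single melanoma line B2905, also called M4. Tumours averaged 75 mm3 when dosing began, and all 25 mice received antibody at 10 mg/kg. The control group was 5 tumours given the isotype antibody IgG2b, and 20 tumours were given anti-CTLA-4, which blocks a T cell receptor that dampens T cell responses. The study design lists 30 mice given anti-CTLA-4, so these 20 tumours were not all that were treated. The 20 were divided by the outcome read 10 to 11 days after the last dose. They were 6 non-responders, which kept growing, 6 stable tumours, which kept their size, and 8 responders, which shrank. The groups were thus defined by growth itself. Mouse age, the transgenes or mutations of B2905 and its Trp53 and Cdkn2a status are not stated in the labels. Nothing in the labels pairs tumours across groups, and the number after a group's name only identifies a tumour.

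As background, p53 is a transcription factor that is held at a low level by the ubiquitin ligase MDM2 and accumulates after DNA damage and other stress. It then activates genes that stop the cell cycle, among them the kinase inhibitor p21 encoded by Cdkn1a, and genes that promote cell death, among them Bbc3. p21 and its relative p27 (Cdkn1b) bind complexes of cyclins with cyclin-dependent kinases, whereas the products p16 and p15 of Cdkn2a and Cdkn2b bind CDK4 and CDK6. In melanoma the Cdkn2a locus is known as a tumour suppressor. Much of the control of p53 acts on the protein, which RNA sequencing does not measure.

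Controls had libraries of 17.66 to 34.31 M counts (M, mega), and those of non-responders ranged from 10.88 to 25.42. Stable tumours had 14.78 to 22.82, and responders 8.765 to 21.19. The share of counts in protein-coding genes was 82.89% to 89.17% in the 17 tumours of the other 3 groups, but 23.8% to 86.98% in responders, with responder 1 at 23.8%, responder 4 at 54.19% and responder 7 at 61.95%. Numbering of the libraries follows the groups, so any effect of processing order cannot be told apart from group. All 7 melanocytic markers (Dct, Mlana, Pmel, Tyrp1, Tyr, Sox10 and Mitf) were detected in every group, with a summed level of 10500 to 17100 CPM in controls (counts per M counts of the library, scaled by the TMM method). That sum was 723 to 13900 in non-responders, 227 to 504 in stable tumours and 303 to 722 in responders. In bulk tissue, fewer cells of a type and less RNA per cell cannot be told apart.

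Responders and non-responders differed in 6 of the 10 genes, at an adjusted p under 0.05 in edgeR's quasi-likelihood test with Benjamini-Hochberg adjustment over all 18031 genes. Cdkn1a, Mdm2 and Bbc3 were higher in responders, whereas Trp53, Cdkn2b and Gdf15 were lower. Of all genes tested, 48.9% passed the same threshold in this comparison, 25.2% higher and 23.8% lower, so 6 of 10 is near the background. Between stable tumours and non-responders 2 genes passed, Gdf15 lower and Ccng1 higher, against a background of 14.9% (7.08% higher and 7.86% lower). Between responders and stable tumours 1 gene passed, Ccng1, lower in responders, against 38.2% of all genes (20.5% higher and 17.8% lower). The 3 outcome groups are shared among these comparisons, which are therefore not independent of each other.

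Against the IgG2b controls, responders differed in 4 of the 10 genes, where 65.0% of all genes passed (36.1% higher and 28.9% lower). Cdkn1a and Bbc3 were higher, and Cdkn2b and Gdf15 were lower. Stable tumours differed from controls in 3 genes, Bbc3 and Ccng1 higher and Gdf15 lower, where 41.8% of all genes passed (22.2% higher and 19.6% lower). For non-responders against controls, edgeR called 0 of the 10 genes, and 2 had an unadjusted p under 0.05. DESeq2 also called 0, and limma on log2(RPKM + 1) called 1, Gdf15, lower in non-responders. Of all genes, 13.9% passed in edgeR (10.6% higher and 3.29% lower). Cdkn1b, Phlda3 and Cdkn2a passed in none of the 6 comparisons.

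**Figure D1:**
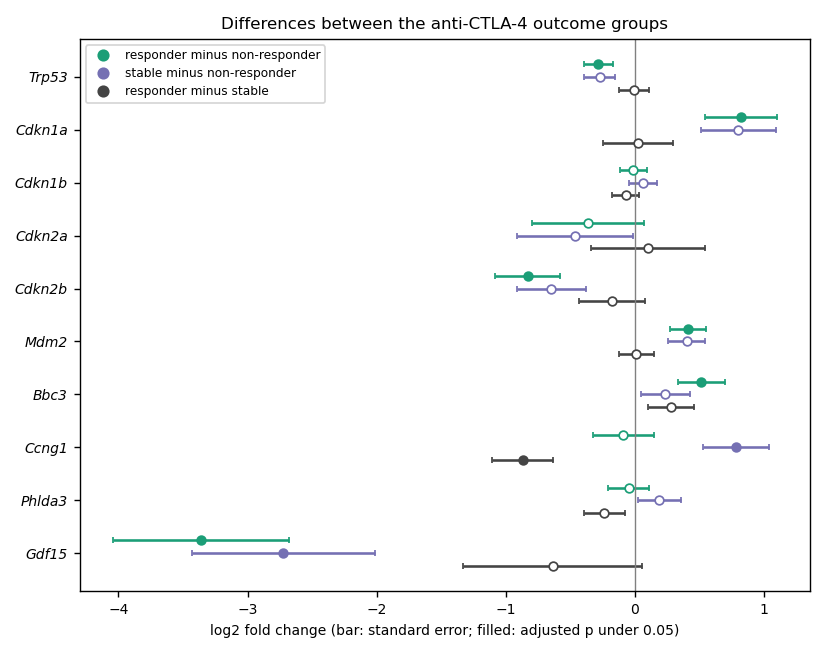
Log2 fold changes of the 10 genes (rows) between the 3 anti-CTLA-4 outcome groups, with bars for the standard error and filled points for an adjusted p under 0.05 in edgeR. Cdkn1a and Mdm2 lie at 0.82 and 0.41 in responder minus non-responder and near 0 in responder minus stable, while Ccng1 is displaced in the comparisons with stable tumours, at 0.78 and -0.87.

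Cdkn1a encodes p21 and is the gene most often used to read p53 activity. RefSeq gives 15 promoter windows of 300 bases for the 10 genes. Window 1 of Cdkn1a (GRCm38.p6, 250 bases before to 50 after the start, chr17:29090729-29091028, plus strand) held their only near-complete p53 response element. Window 2 of Cdkn1a (chr17:29093519-29093818) held none. The motif searched was the p53 response element made of 2 half-sites side by side, 20 bases long, with both 4-base cores intact; it reads the same on both strands. Part of window 1 is shown because it carries this element, in capitals, at 29090928 to 29090947 within chr17:29090869-29090968.
Cdkn1a promoter: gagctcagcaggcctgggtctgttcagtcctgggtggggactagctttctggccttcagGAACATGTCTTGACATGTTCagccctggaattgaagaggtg

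The Cdkn1a element had 1 mismatch to the consensus, and 18 of 32851 promoter windows (0.0548%) held an element with at most 1 mismatch. The window of Trp53 (chromosome 11, 69580284 to 69580303) and window 1 of Bbc3 (chromosome 7, 16309486 to 16309505) held a poorer match with 3 mismatches, a grade reached by 188 windows (0.572%). The 3 matches are set out to compare them, with the cores of the half-sites in capitals.
Cdkn1a: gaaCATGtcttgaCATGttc
Trp53: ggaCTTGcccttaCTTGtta
Bbc3: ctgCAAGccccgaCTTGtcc
The other windows held no 20-base stretch with both cores, which says only that these letters are absent from these windows. They were window 2 of Cdkn1a, windows 2 and 3 of Bbc3, and those of Mdm2, Gdf15, Ccng1, Phlda3, Cdkn1b, Cdkn2a and Cdkn2b. A match is a description of sequence and was not linked to binding here.

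Cdkn1a (ENSMUSG00000023067.14, chr17:29090976-29100727, plus strand, GRCm38) was higher in responders and nearly as high in stable tumours. The 5 controls had 32.6, 96.1, 70.3, 45.9 and 43.9 CPM, and non-responders ranged from 29.8 to 102.7 around a median of 47.8. Stable tumours ranged from 55.9 to 150.1 with a median of 92.1, and responders from 63.3 to 138.6 with a median of 93.3. All 8 responders and all 6 stable tumours lay above the non-responder median, but the groups overlapped, since non-responder 1 reached 102.7 and only 3 responders exceeded it. Responders were 1.77-fold above non-responders (log2 0.82, SE 0.28, 95% interval 0.28 to 1.36, adjusted p = 0.0179) and 1.68-fold above controls (log2 0.75, SE 0.29, adjusted p = 0.0285). Stable tumours showed a difference from non-responders of similar size that did not pass (log2 0.80, SE 0.29, adjusted p = 0.0655). Their difference from controls did not pass either (adjusted p = 0.0606). The first was called in 1 of the 14 other settings, DESeq2 (log2 0.80, adjusted p = 0.0405), and in 2 of the 25 fits that left out 1 tumour. The second was called in 0 of these settings and in 3 of these fits. For responder minus stable the 95% interval ran from -0.51 to 0.55 on the log2 scale.

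The antisense gene AC167363.2, which overlaps Cdkn1a, had 0 to 2 counts per tumour. Across responders, Cdkn1a was lowest in responder 5, the tumour with the highest protein-coding share, and highest in responder 1, the tumour with the lowest. Between these, its order did not follow the share. Responders 2 and 3, at shares of 72.68% and 74.35%, had 134.2 and 115.9 CPM. Responders 4 and 7, at 54.19% and 61.95%, had 96.0 and 90.6. The Cdkn1a call against non-responders was kept with any 1 tumour left out (adjusted p up to 0.0484). It was lost without responders 1, 4 and 7 (log2 0.73, adjusted p = 0.0766), and also when the fit included each library's protein-coding share, either as the share itself (log2 0.56, adjusted p = 0.279), its logarithm (0.62, 0.144) or its logit (0.52, 0.400). The covariate as the share itself was planned, while the other forms and the removal of the 3 libraries were added after seeing the data. The part of library composition in the result was not tested beyond these fits. The call against controls was also lost when control 1, 4 or 5, or responder 1 or 2, was left out, with an adjusted p of up to 0.0961. It was lost with each form of the covariate (log2 0.42 to 0.54, adjusted p = 0.176 to 0.420), without responders 1, 4 and 7 (log2 0.67, adjusted p = 0.0894) and without a low-count filter (log2 0.56, adjusted p = 0.127).

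**Figure D2:**
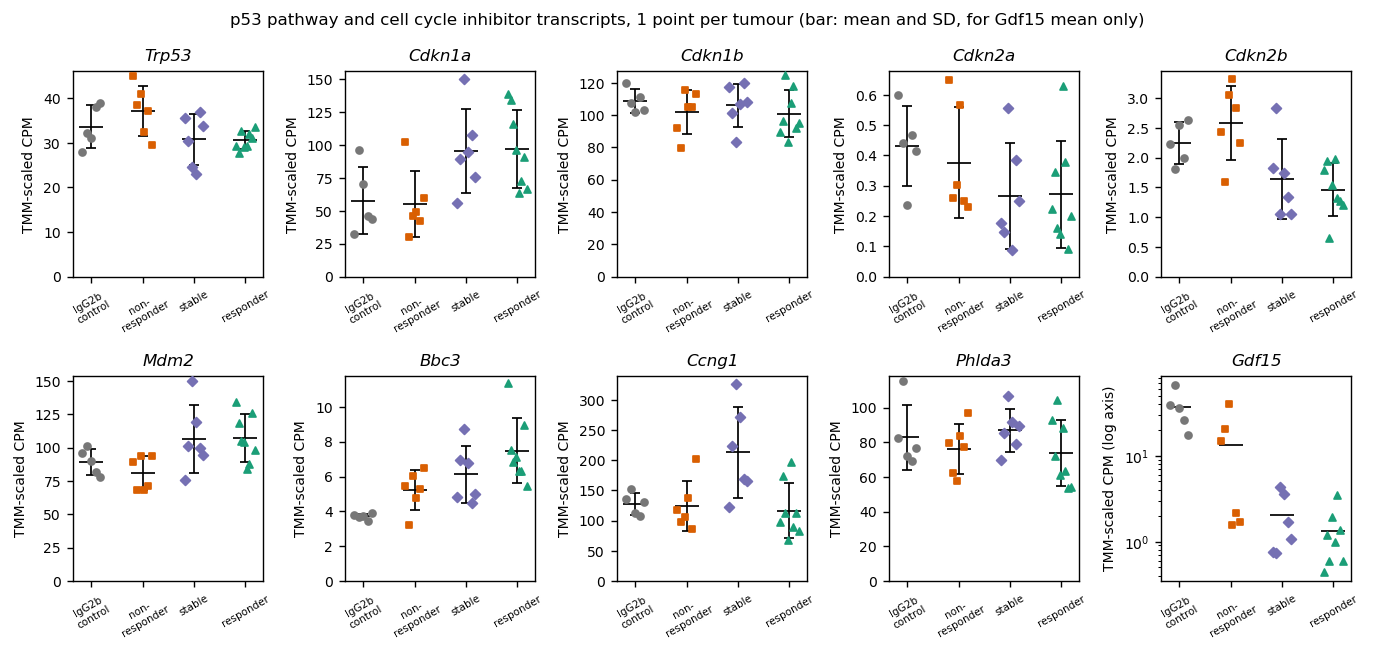
Level of each of the 10 transcripts (y axis, TMM-scaled CPM) in every tumour, by group, with 1 point per tumour and bars for the mean and SD; Gdf15 is on a log axis with the mean alone. Median Cdkn1a is 93.3 in responders and 47.8 in non-responders, median Mdm2 104.9 and 80.1 and median Bbc3 6.97 and 5.36, with overlap; Ccng1 is highest in stable tumours, and Gdf15 separates controls (17.5 to 66.1) from stable tumours and responders (0.446 to 4.29).

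Mdm2 encodes the ligase that degrades p53 and is itself a p53 target. Mdm2 (ENSMUSG00000020184.15, chr10:117688875-117710758, minus strand) had 96.4, 101.5, 89.9, 82.1 and 77.9 CPM in the controls and 68.0 to 94.1 in non-responders, with a median of 80.1. Stable tumours ranged from 75.5 to 149.9 (median 100.6) and responders from 84.0 to 134.3 (median 104.9). Of the 8 responders, 6 lay above every non-responder, and so did 5 of the 6 stable tumours. Mdm2 was 1.33-fold higher in responders than in non-responders (log2 0.41, SE 0.14, adjusted p = 0.0163). In stable tumours the value was much the same but did not pass (log2 0.40, SE 0.14, adjusted p = 0.0612), and neither group passed against controls (adjusted p = 0.114 and 0.191). The Mdm2 call was lost without responders 1, 4 and 7 (log2 0.30, adjusted p = 0.116) and with each form of that covariate (log2 0.22 to 0.27, adjusted p = 0.181 to 0.474). Leaving out the low-count filter, which moved the median of all genes by -0.09, also ended it (log2 0.31, adjusted p = 0.109). Stable minus non-responder was instead called with each form of the covariate (log2 0.40 to 0.41, adjusted p = 0.0444 to 0.0471). It was also called in 3 of the 25 fits that left out 1 tumour (non-responder 6, stable tumour 1 or responder 5).

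Trp53 itself (ENSMUSG00000059552.13, chr11:69580359-69591873, plus strand) was lower in responders by a small margin. The controls had 27.9, 32.1, 31.1, 38.2 and 39.0 CPM, and non-responders 29.5 to 45.0 with a median of 37.9. Stable tumours had 23.0 to 37.0 (median 32.2) and responders 27.8 to 33.5 (median 30.2). All 8 responders lay under the non-responder median, and 4 lay under every non-responder. The difference between responders and non-responders was small, at 0.82-fold (log2 -0.28, SE 0.11, adjusted p = 0.0409). It was the least stable of the calls for the 10 genes: leaving out any 1 of 10 tumours (non-responders 1, 2, 3 and 5, responders 1, 2, 4, 5, 6 and 7) ended it, with an adjusted p of up to 0.116, and limma on log2(RPKM + 1) gave a log2 difference of -0.10 (adjusted p = 0.484). Stable minus non-responder did not pass (log2 -0.27, adjusted p = 0.129). The processed pseudogene Trp53-ps had 0 to 9 counts per tumour.

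Bbc3 encodes PUMA, a protein that triggers mitochondrial cell death, and it was the target with the clearest step above the IgG2b controls. Bbc3 (ENSMUSG00000002083.13, chr7:16308393-16318205, plus strand) had 3.80, 3.65, 3.76, 3.45 and 3.88 CPM in the 5 controls, a narrow range. Non-responders ranged from 3.20 to 6.50 (median 5.36), stable tumours from 4.50 to 8.75 (median 5.88) and responders from 5.46 to 11.4 (median 6.97). Every responder and every stable tumour lay above every control, as did 5 of the 6 non-responders. Bbc3 was 2.01-fold higher in responders than in controls (log2 1.00, SE 0.20, adjusted p = 0.000118) and 1.65-fold higher in stable tumours (log2 0.72, SE 0.20, adjusted p = 0.00563). The call against controls held in every alternative fit and every set with 1 tumour left out for responders (adjusted p up to 0.0346), and for stable tumours in all but the setting that also asked for a 2-fold change. These are low levels, with 51 to 170 counts per tumour.

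Responders also exceeded non-responders in Bbc3 (log2 0.51, SE 0.18, adjusted p = 0.023). That call was lost with each form of the covariate (log2 0.20 to 0.27, adjusted p = 0.289 to 0.621) and without responders 1, 4 and 7 (log2 0.33, adjusted p = 0.171). It was also lost without a low-count filter (log2 0.42, adjusted p = 0.116), with only the groups compared (log2 0.52, adjusted p = 0.0553) and, among the fits that left out 1 tumour, without non-responder 2, the lowest of its group (log2 0.41, adjusted p = 0.0655). Non-responders were 1.40-fold above controls without passing (log2 0.49, SE 0.20, adjusted p = 0.109).

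**Figure D3:**
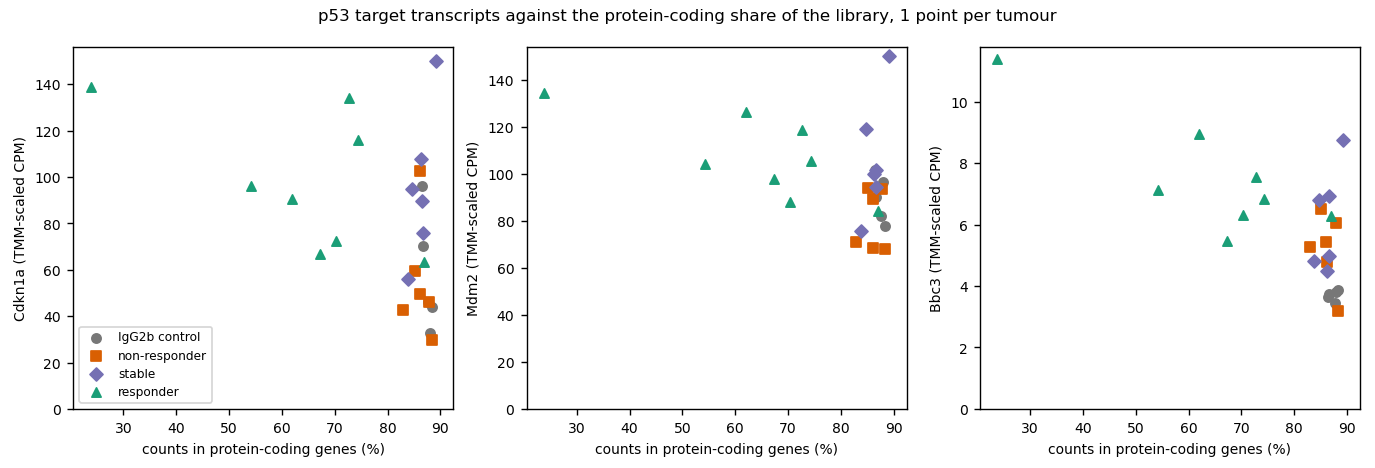
Level of Cdkn1a, Mdm2 and Bbc3 (y axes, TMM-scaled CPM) against the percentage of counts in protein-coding genes (x axis), 1 point per tumour, coloured by group. Responder 1, at 23.8%, has the highest Cdkn1a (138.6), Mdm2 (134.3) and Bbc3 (11.4) of the responders, while responder 5, at 86.98%, has the lowest Cdkn1a (63.3) and Mdm2 (84.0). Cdkn1a does not follow the share between them: responder 2, at 72.68%, has 134.2 and responder 4, at 54.19%, has 96.0.

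Ccng1 encodes cyclin G1, which recruits a phosphatase to MDM2 and takes part in the feedback on p53. Among the 10 genes it alone was called between responders and stable tumours in edgeR, while limma on the RPKM values also called Bbc3, higher in responders. Ccng1 (ENSMUSG00000020326.7, chr11:40748552-40755311, minus strand) had 135.1, 152.6, 111.9, 106.9 and 130.0 CPM in controls and 86.0 to 201.3 in non-responders (median 111.4). Stable tumours had 122.6 to 326.9 (median 196.0), and responders 67.2 to 197.0 (median 104.6). Of the 8 responders, 6 lay under every stable tumour, and 5 of the 6 stable tumours lay above every control. Stable tumours were 1.72-fold above non-responders (log2 0.78, SE 0.26, adjusted p = 0.0413) and 1.67-fold above controls (log2 0.74, SE 0.27, adjusted p = 0.0297), and responders were 0.55-fold of stable tumours (log2 -0.87, SE 0.24, adjusted p = 0.00856). Responders did not pass against non-responders (adjusted p = 0.771).

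The call for responder minus stable held with any 1 tumour left out (adjusted p up to 0.0281) and was lost without responders 1, 4 and 7 (log2 -0.70, adjusted p = 0.0913) and with each form of the covariate (log2 -0.46 to -0.68, adjusted p = 0.121 to 0.771). The 2 calls for higher Ccng1 in stable tumours were less firm, with 8 of the 25 fits that leave out 1 tumour above the threshold against non-responders and 5 against controls. Without stable tumour 3, which had the highest level, the log2 differences were 0.62 (adjusted p = 0.131) and 0.58 (adjusted p = 0.0918). The summed level of 5 macrophage markers (Adgre1, Csf1r, Cd68, Mrc1 and C1qa, none at 0 in any group) was 1390 to 2240 CPM in stable tumours, 638 to 1900 in responders, 513 to 1490 in non-responders and 379 to 666 in controls. Of these 5 markers, 4 fell in responders relative to stable tumours, where 17.8% of all genes fell. Responder 5, which had the highest Ccng1 of its group at 197.0 CPM, had the highest macrophage sum of its group at 1900, and non-responder 6 likewise had 201.3 and 1490. Other tumours differed: non-responder 4 had 137.1 CPM of Ccng1 at a sum of 1480. Among controls, the highest sum (666, control 5) went with 130.0 CPM, while control 2 had 152.6 at a sum of 448. The part of macrophage content in the Ccng1 differences was not tested.

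Gdf15 encodes a secreted stress cytokine that p53 and other stress pathways induce. It was lower in responders than in non-responders, the comparison in which Cdkn1a, Mdm2 and Bbc3 were called higher. Gdf15 (ENSMUSG00000038508.7, chr8:70629393-70632456, minus strand) had 38.7, 66.1, 35.8, 26.2 and 17.5 CPM in the controls. Non-responders were spread over 1.54 to 39.9 CPM around a median of 8.53, with non-responders 1, 2 and 3 at 14.9, 20.6 and 39.9 and the other 3 at 1.54 to 2.12. Stable tumours had 0.731 to 4.29 (median 1.37) and responders 0.446 to 3.49 (median 1.08). No responder or stable tumour reached any control, and 6 of the 8 responders lay under every non-responder. Responders were at 0.0355-fold of controls (log2 -4.82, SE 0.72, adjusted p = 6.05e-06) and at 0.0974-fold of non-responders (log2 -3.36, SE 0.68, adjusted p = 0.000588). Stable tumours were at 0.0552-fold of controls (log2 -4.18, SE 0.76, adjusted p = 0.000108) and at 0.151-fold of non-responders (log2 -2.72, SE 0.71, adjusted p = 0.0134).

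Among non-responders, Gdf15 and the melanocytic markers were high in the same tumours. The 3 non-responders with high Gdf15 had melanocytic sums of 3520, 6980 and 13900 CPM, and those with low Gdf15 had 1230, 904 and 723. This did not hold within controls or stable tumours, where the highest Gdf15 (control 2 at 66.1 CPM and stable tumour 3 at 4.29) went with the lowest melanocytic sum of the group (10500 and 227). All 7 markers fell in responders and in stable tumours relative to non-responders, where the median of the marker list was -4.26 and -4.00 on the log2 scale. Of all genes, 23.8% and 7.86% fell in these 2 comparisons. The part of melanoma cell content in the Gdf15 differences was not tested. The stable minus non-responder difference no longer passed without non-responder 3 (log2 -1.99, adjusted p = 0.0618). It was also lost with only the groups compared (log2 -2.71, adjusted p = 0.0530) and in limma on unfiltered log2(RPKM + 1) (log2 -1.47, adjusted p = 0.0525). Non-responder minus control did not pass in edgeR with all tumours (log2 -1.46, adjusted p = 0.161), and did without non-responder 3 (log2 -2.19, adjusted p = 0.0233). With all tumours it passed in limma on log2(RPKM + 1) (log2 -1.89, adjusted p = 0.0166), log2(RPKM + 0.1) (-2.29, 0.0281) and unfiltered (-1.89, 0.0255). With the share itself as covariate, responder minus non-responder was -2.95 (adjusted p = 0.0933). It passed with the logarithm of the share (-3.04, adjusted p = 0.0307) and did not with its logit (-2.69, adjusted p = 0.201).

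**Figure D4:**
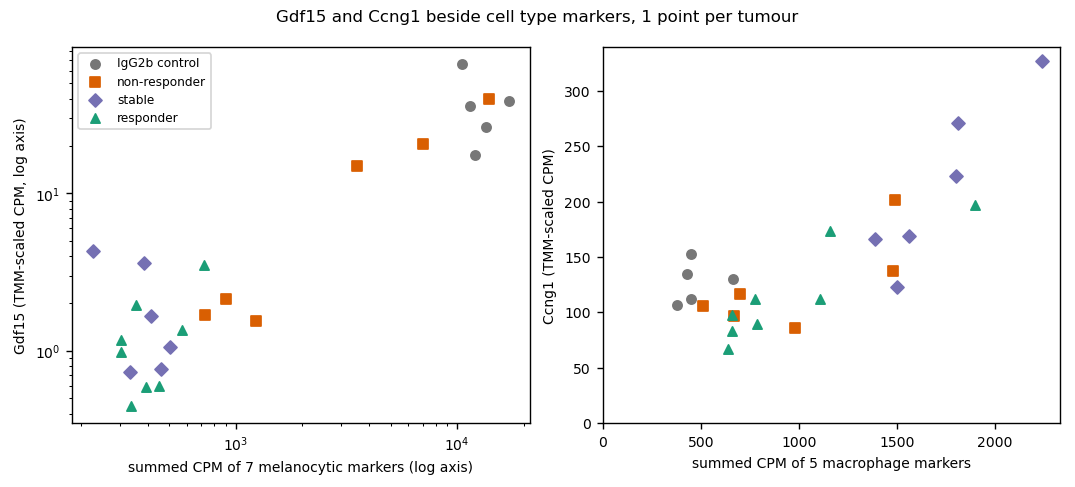
Left, Gdf15 against the summed CPM of 7 melanocytic markers, both on log axes; right, Ccng1 against the summed CPM of 5 macrophage markers; 1 point per tumour. Non-responders 1 to 3 (melanocytic sums 3520 to 13900, Gdf15 14.9 to 39.9) lie nearer the controls (10500 to 17100, 17.5 to 66.1) than the other non-responders do, while in the right panel stable tumour 3 holds the highest Ccng1 (326.9) and the highest macrophage sum (2240).

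Phlda3 encodes an inhibitor of AKT signalling that p53 induces, and no comparison of Phlda3 passed. Phlda3 (ENSMUSG00000041801.5, chr1:135766119-135769136, plus strand) had 82.3, 115.3, 71.8, 69.0 and 76.7 CPM in controls. Non-responders had 57.8 to 96.8, stable tumours 69.6 to 106.6 and responders 53.5 to 104.2. The 4 groups overlapped, and the lowest adjusted p among the 6 comparisons was 0.236, for responders against stable tumours. For responder minus non-responder the 95% interval ran from -0.36 to 0.26 on the log2 scale.

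Among the inhibitors not chosen as p53 targets, Cdkn1b (ENSMUSG00000003031.14, chr6:134920401-134925513, plus strand), which encodes p27, varied least of the 10 genes. The controls had 119.9, 107.3, 102.1, 111.0 and 103.0 CPM, non-responders 79.4 to 115.8, stable tumours 83.2 to 120.0 and responders 83.1 to 124.8. The groups overlapped throughout, and the lowest adjusted p was 0.396. For responder minus non-responder the 95% interval of Cdkn1b ran from -0.22 to 0.19 on the log2 scale.

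Cdkn2b, which encodes p15, was lower in responders. Cdkn2b (ENSMUSG00000073802.5, chr4:89306299-89311039, minus strand) was sparsely sequenced, with 8 to 82 counts per tumour. The controls had 2.23, 1.81, 2.54, 2.00 and 2.64 CPM and non-responders 1.60 to 3.32 (median 2.63), against 1.06 to 2.83 (median 1.54) in stable tumours and 0.644 to 1.98 (median 1.43) in responders. All 8 responders lay under the medians of both non-responders and controls, and 5 lay under every non-responder. Responders were at 0.56-fold of non-responders (log2 -0.83, SE 0.25, adjusted p = 0.00977) and at 0.65-fold of controls (log2 -0.63, SE 0.26, adjusted p = 0.0402). Stable minus non-responder did not pass (log2 -0.65, adjusted p = 0.104). The call against non-responders held with any 1 tumour left out (adjusted p up to 0.0267) but not in limma on log2(RPKM + 1) (log2 -0.33, adjusted p = 0.0532), and with the covariate it was -0.89 (adjusted p = 0.0773) for the share itself and -0.88 (adjusted p = 0.127) for its logit, while the logarithm of the share kept it (log2 -0.90, adjusted p = 0.0325). The call against controls was lost in 10 of the 14 other settings and in 7 of the 25 fits without 1 tumour (control 1, 3 or 5, or responder 3, 6, 7 or 8).

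Cdkn2a (ENSMUSG00000044303.6, chr4:89274471-89294653, minus strand) was close to the limit of detection, with 1 to 18 counts per tumour. Its row pools the transcripts for p16 and for p19Arf, the second product of the locus, which protects p53 from MDM2. The controls had 0.600, 0.442, 0.235, 0.466 and 0.414 CPM, non-responders 0.229 to 0.649, stable tumours 0.087 to 0.557 and responders 0.0904 to 0.629. All 4 groups overlapped, and a difference was not detectable at this depth (lowest adjusted p 0.236).

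Per length of transcript, in the authors' RPKM over the 25 tumours, Phlda3 had the highest mean, 50.8 (SD 9.11), followed by Ccng1 at 37.6 (SD 14.3), Cdkn1a at 36.5 (SD 15.3), Cdkn1b at 34.1 (SD 3.76) and Mdm2 at 26.1 (SD 5.33). Trp53 stood at 14.2 (SD 2.37), Gdf15 at 6.72 (SD 10.0), Bbc3 at 3.28 (SD 1.15), Cdkn2b at 1.46 (SD 0.489) and Cdkn2a at 0.276 (SD 0.155). Ccng1, Cdkn1a and Cdkn1b, neighbours in this order, differed by less than the SD of the first 2. The order was not the same in every group: mean Ccng1 (53.7) was above mean Phlda3 in stable tumours, and mean Gdf15 was above Trp53 in controls (21.5 against 13.7) but below Cdkn2b in responders (0.838 against 1.30). Gdf15 varied most, 150-fold between its highest and lowest tumour, and Cdkn1b least, 1.76-fold.

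Proliferation transcripts fell in both responders and stable tumours, beside the differences in the inhibitors above. Of 24 genes of DNA replication and mitosis, 22 fell in responders relative to non-responders with a median log2 difference of -1.19, against 0.05 for all genes, of which 23.8% fell. The exceptions were E2f1 and Mybl2 (adjusted p = 0.782 and 0.0742). In stable tumours 21 fell relative to non-responders, with a median of -0.94, where 7.86% of all genes fell. Relative to controls, 23 fell in responders and 23 in stable tumours, beside 28.9% and 19.6% of all genes. For non-responders against controls edgeR called 0 of 24, DESeq2 also called 0, and 3 had an unadjusted p under 0.05, although 5 were called without non-responder 3.

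Mki67, which marks cycling cells, had a mean of 448.8 CPM in controls and 406.1 in non-responders, against 217.8 in the stable group and 198.2 among responders (log2 -1.03 for responder minus non-responder, SE 0.20, adjusted p = 0.000473). Top2a, a topoisomerase of dividing cells, went from 238.9 in non-responders to 103.9 in responders (log2 -1.20, adjusted p = 3.89e-05). Cdc20, an activator of the anaphase-promoting complex, went from 35.4 to 9.97 (log2 -1.82, adjusted p = 9.66e-06), and Mcm5, a subunit of the replicative helicase, from 68.7 to 21.1 (log2 -1.70, adjusted p = 9.51e-06). Tk1, a kinase that salvages thymidine, fell by 0.92 and Bub1b, a mitotic checkpoint kinase, by 0.77 on the log2 scale.

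Between responders and stable tumours 7 of the 24 were lower and Mybl2 was higher, where 17.8% of all genes were lower and 20.5% higher. This count was 4 to 9 with 1 tumour left out, 1 without responders 1, 4 and 7, and 0 with each form of the covariate. With the covariate, 19 of the 24 were still called for responder minus non-responder when the share itself was used, 22 with its logarithm and 13 with its logit.

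Averaged over the 24 genes, the proliferation level (mean log2 CPM) was 5.75 (SD 0.22) in controls and 5.40 (SD 0.46) in non-responders. It was 4.54 (SD 0.26) in stable tumours and 4.28 (SD 0.20) in responders. Within both of these groups, the tumour with the lowest proliferation level had the highest Cdkn1a and Mdm2 of its group. Stable tumour 3 had a level of 4.12 with 150.1 CPM of Cdkn1a, and responder 1 had 3.96 with 138.6. Among controls, the 2 tumours with the highest Cdkn1a, controls 2 and 3, likewise had the lowest proliferation levels, 5.53 and 5.495. The order did not hold among non-responders, where non-responder 1 had the highest Cdkn1a, 102.7 CPM, at a level of 5.56, and non-responder 6 had the lowest level, 4.89, with 59.6 CPM. The proliferation level was also high or low with the melanocytic sum: non-responders 1 to 3 (sums 3520 to 13900 CPM) had levels of 5.56 to 6.01, and non-responders 4 to 6 (723 to 1230) had 4.89 to 5.15. Stable tumours and responders, with sums of 227 to 722, had levels of 3.96 to 4.87. The part of melanoma cell content in the fall of proliferation transcripts was not tested. Stable tumour 1 had a proliferation level of 4.52 with 55.9 CPM of Cdkn1a, inside the range of non-responders.

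**Figure D5:**
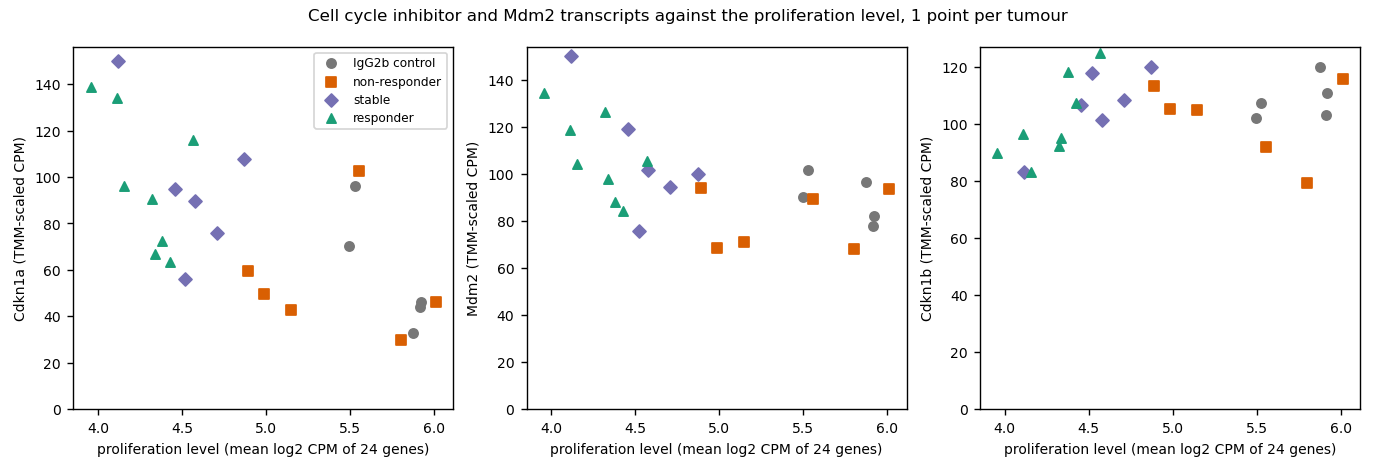
Cdkn1a, Mdm2 and Cdkn1b (y axes, TMM-scaled CPM) against the proliferation level, the mean log2 CPM of 24 genes (x axis), 1 point per tumour. Stable tumours and responders lie at 3.96 to 4.87 and controls and non-responders at 4.89 to 6.01 on the x axis, with Cdkn1a at 55.9 CPM or more in each of the former and Cdkn1b between 79.4 and 124.8 throughout.

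The cyclins and kinases that the inhibitors bind fell with the proliferation genes. Of 12, 9 were lower in responders than in non-responders (median log2 -1.23, with 23.8% of all genes lower) and 8 in stable tumours (median -0.84, with 7.86% of all genes lower). Ccnb2 and Ccnb1, the mitotic cyclins, fell by 2.03 and 1.94 on the log2 scale in responders, from 30.1 to 7.24 CPM and from 57.1 to 14.8 CPM. Cdk4, the target of p15 and p16, fell by 1.00 on the log2 scale, from 161.4 to 80.3 CPM (SE 0.15, adjusted p = 4.42e-05). Its partner Ccnd1 went from 505.0 to 297.8 CPM (log2 -0.76, SE 0.22, adjusted p = 0.00776). Ccnd2, Ccnd3 and Cdk6 did not pass in this comparison.

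Other inhibitors went in both directions. Of 9 genes, 3 were higher and 3 lower in responders than in non-responders, where 25.2% of all genes were higher and 23.8% lower. Cdkn2c and Cdkn2d, which encode the CDK4 and CDK6 inhibitors p18 and p19, fell by 1.37 and 0.78 on the log2 scale, Cdkn2c from 39.9 to 15.3 CPM and Cdkn2d from 20.7 to 11.9 CPM. Rbl1, a relative of the retinoblastoma gene, fell by 0.45. Btg1, an antiproliferative gene, rose from 151.2 to 238.8 CPM (log2 0.66, adjusted p = 0.0101), and Gadd45g, a stress gene, from 3.50 to 5.70 CPM (log2 0.70, adjusted p = 0.0201). Rb1 rose by 0.24 on the log2 scale. In stable tumours 4 of the 9 were higher and 1 lower than in non-responders, where 7.08% of all genes were higher and 7.86% lower. Relative to controls, 5 were higher and 2 lower in stable tumours, where 22.2% of all genes were higher and 19.6% lower.

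Among 26 other genes known as p53 targets, 7 were higher and 3 lower in responders than in non-responders, 10 of 26 beside the background of 48.9%. Their median log2 difference was 0.13, against 0.05 for all genes. Pidd1, which forms a caspase-activating complex, rose from 4.86 to 9.03 CPM (log2 0.89, SE 0.19, adjusted p = 0.00102), and Plk3, a stress-response kinase, from 7.47 to 18.8 CPM (log2 1.31, SE 0.32, adjusted p = 0.00219). Plk2, a related kinase, fell from 152.9 to 65.6 CPM (log2 -1.22, SE 0.16, adjusted p = 1.91e-05), and Sesn1, a metabolic stress gene, from 51.6 to 37.2 CPM (log2 -0.47, adjusted p = 0.00644). Bax, an effector of cell death, did not pass (log2 -0.09, adjusted p = 0.609). In stable tumours 5 of the 26 were higher and 1 lower than in non-responders, where 14.9% of all genes passed. Relative to controls, 11 were higher and 2 lower in stable tumours, where 22.2% of all genes were higher and 19.6% lower. In responders 11 were higher and 4 lower than in controls, where 36.1% of all genes were higher and 28.9% lower.

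Of 13 regulators and relatives of p53, 3 were higher and 2 lower in responders than in non-responders, 5 of 13 where 48.9% of all genes passed. Mdm4, which binds and restrains p53, rose from 105.5 to 196.5 CPM (log2 0.90, SE 0.16, adjusted p = 0.000196), with responders ranging from 100.1 to 265.8, and it was also higher in responders than in stable tumours (log2 0.81, adjusted p = 0.00185). With the protein-coding share or its logit as covariate, that comparison with stable tumours had 0 calls among all genes, Mdm4 included. Hipk2, a kinase that phosphorylates p53, rose from 63.2 to 95.1 CPM (log2 0.59, adjusted p = 0.0332). Chek2 and Atm, kinases of the DNA damage response upstream of p53, fell by 0.48 and 0.20 on the log2 scale. Of 6 genes of the integrated stress response, another inducer of Gdf15, Chac1 alone passed in responder minus non-responder (log2 2.44, SE 0.71, adjusted p = 0.00758), with responders from 2.71 to 70.8 CPM. In stable tumours 2 of the 6 were higher than in non-responders (median log2 0.999), where 7.08% of all genes were higher. In responders 2 were lower than in stable tumours, where 17.8% of all genes were lower.

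The protein-coding genes whose levels followed Cdkn1a most closely over the 25 tumours were Fblim1 (Spearman's rho 0.94), Fam214b (0.883), Cars (0.862), Dlg1 (0.835) and Abl2 (0.835). Among the other 9 genes studied here, Mdm2 was the closest, with a rho of 0.801, rank 16 of 14752. Bbc3 followed with 0.629, Phlda3 with 0.402 and Ccng1 with 0.279, while Trp53 (-0.433), Cdkn2b (-0.509), Gdf15 (-0.362), Cdkn1b (-0.207) and Cdkn2a (-0.184) ran the other way. These are descriptions over tumours that share libraries, composition and groups.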

How the data were processed

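RNA was sequenced from 25 tumours, 1 library each. The submitters' processing notes name bcl2fastq 2.17, Trimmomatic, STAR 2.5.1, RSEM 1.2.22 and the mm10 build, without saying what each was used for. Per the labels' protocols, libraries were made with a TruSeq kit for stranded total RNA, but the molecule is labelled polyA RNA. In the sources used here, the strand setting of the counting is not given. The authors deposited expected counts (estimated counts per gene, not normalized), of which 5.6447% were not whole. The plan of the tests took them to be whole, so they were rounded first. The authors also deposited RPKM values (reads per kilobase and M reads), whose gene lengths and denominator are not given. All 55450 gene identifiers matched GENCODE M21 on GRCm38, the source of the coordinates, and promoter sequences are from RefSeq.

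Genes were filtered with filterByExpr, leaving 18031, scaled with TMM and fitted in edgeR 4.0.16 (R 4.3.3, robust quasi-likelihood F tests, two-sided) over all 25 tumours with 4 group means. The standard error of a log2 fold change is its size divided by the square root of F. P-values were adjusted by Benjamini-Hochberg over all genes tested, and genes under 0.05 are called. Alternatives used DESeq2 1.42.0, limma 3.58.1 on log2(RPKM + 1) or log2(RPKM + 0.1), RLE scaling, other filters, each library's protein-coding share as covariate, the omission of each tumour, and the omission together of the 3 libraries under a protein-coding share of 65% (responders 1, 4 and 7), a limit set after the shares were seen. The fit was tested on simulated counts. Replicates of a group differed by a chi-square per gene of at least 16.0, so no library duplicated another of its own group. Pairs of libraries from different groups were not compared. The labels give separate mice, and p-values measure the spread between these tumours.

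The 10 genes, the other lists and the tests were chosen with earlier results of these data known. All 10 genes are named, and from each other list the called genes with the 2 highest and 2 lowest responder minus non-responder changes, plus Mki67 and Top2a; for Cdkn1a, the 5 protein-coding genes with the highest Spearman's rho. Rb1, Rbl1, Bax, E2f1, Mybl2, Ccnd2, Ccnd3 and Cdk6 were named after their values were seen. Where a symbol had more than 1 identifier, the one with the higher total was used.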

Additional observations from a re-analysis of the deposited data

Results flagged for a closer look

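Of 44 sets of tumours checked for a single stray value (each of the 10 genes and the proliferation level within each group), 1 held such a tumour, and chance alone marks about 1 in 20. Phlda3 was 115 CPM in control 2 and 69.0 to 82.3 CPM in the other 4 controls. The gap to its nearest neighbour was 0.713 of the whole range, just above the limit of 0.71 for 5 samples. No comparison of Phlda3 passed with all tumours.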

How the results depend on the processing

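Counts are given as genes called of the 10 and of the 24 proliferation genes, with 14 other settings and 25 fits that each left out 1 tumour. Directions and calls are listed for the 24 of 60 gene and comparison pairs called in at least 1 setting. The other 36 stayed under the threshold in every setting, and 20 of them changed sign in at least 1; they were left off this list after those sign changes were seen. The count of the 10 moved by more than 1.5 times as follows. Asking for a 2-fold change left 1 gene for responder minus non-responder, 1 for stable minus non-responder, 0 for responder minus stable, 2 for responder minus control and 1 for stable minus control, with 9 proliferation genes for stable minus non-responder and 0 for responder minus stable. Without a low-count filter it was 1 for stable minus non-responder, with 5 proliferation genes for responder minus stable, and protein-coding genes alone also gave 5. That filter setting moved the median of all genes by -0.186 in responder minus control and -0.143 in stable minus control. Fitting only the groups compared gave 0 for stable minus non-responder. With the protein-coding share as covariate, responder minus non-responder had 0 genes for the share itself, 2 for its logarithm and 0 for its logit, responder minus control 2 in each form, and responder minus stable 0 in each form, with 0 proliferation genes there and, for the logit, 13 in responder minus non-responder. Without responders 1, 4 and 7 (chosen after seeing the data, as were the logarithm and logit) the counts were 2, 0 and 2 for responders against non-responders, stable tumours and controls, with 1 proliferation gene against stable tumours. In limma, responder minus stable had 2 genes on each of log2(RPKM + 1), log2(RPKM + 0.1) and the unfiltered values, with 4, 5 and 4 proliferation genes. Non-responder minus control had 1, 2 and 1 there, and stable minus non-responder 1 unfiltered.

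With 1 tumour left out, the 10 genes gave 4 to 6 calls for responder minus non-responder, 0 to 4 for stable minus non-responder, 1 for responder minus stable in each fit, 2 to 4 for responder minus control, 2 to 4 for stable minus control and 0 to 1 for non-responder minus control. Proliferation calls were 4 to 9 for responder minus stable and 0 to 5 for non-responder minus control. Over all genes, the 48.9% called in responder minus non-responder (8823 genes) became 3421 genes at 2-fold, 1810, 4627 and 536 with the covariate as share, logarithm and logit, and 5768 without the 3 libraries. Responder minus stable (6891) became 2210, then 0, 322 and 0, then 1400. Responder minus control (11723) became 6316 at 2-fold and 6668 with the logit, stable minus control (7531) 3945, stable minus non-responder (2693) 1095, and non-responder minus control (2500) 1530 at 2-fold and 1559 with only its groups. With 1 tumour left out the last 2 ran over 1470 to 3804 and 1570 to 4237.

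Signs turned in 5 uncalled values: Bbc3 in responder minus stable, 0.28 in the test described, was -0.0288 with the share as covariate and -0.0474 with its logit. In limma it was called higher in responders on log2(RPKM + 1) (0.397, adjusted p = 0.0119), log2(RPKM + 0.1) (0.494, adjusted p = 0.0140) and the unfiltered values (0.397, adjusted p = 0.0151). Trp53 in responder minus control, -0.14, was 0.0894 in limma on log2(RPKM + 1), 0.0952 on log2(RPKM + 0.1) and 0.0894 unfiltered. In edgeR it was called lower without a low-count filter (-0.322, adjusted p = 0.0399) and with only the groups compared (-0.233, adjusted p = 0.0452). The cause of these changes was not tested. No paired analysis was possible because mouse identifiers are unique to a tumour and nothing in the labels links tumours across groups. Counts per tumour were low for Cdkn2a (1 to 18), for Cdkn2b (8 to 82) and for Gdf15 in responders (2 to 37) and stable tumours (13 to 83). The outcome groups were defined by growth, so their differences in proliferation genes and in growth are not independent. Cell type content, library composition and processing order differ with group.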

Other observations

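Within groups, the p53 targets tended to peak in the same tumour, a pattern seen in the values and not tested. Of Cdkn1a, Mdm2, Bbc3, Gdf15, Ccng1 and Phlda3, all 6 were highest in stable tumour 3 among stable tumours, and 5 were highest in control 2 among controls, with Bbc3 the exception. Non-responder 6 was highest for 4 of the 6 (Mdm2, Bbc3, Ccng1 and Phlda3) and responder 1 for 3 (Cdkn1a, Mdm2 and Bbc3). Non-responder 6, stable tumour 3 and responder 1 also had the lowest proliferation level of their groups, 4.89, 4.12 and 3.96, whereas control 2, at 5.53, did not. Gdf15, which was lower in stable tumours than in controls as a group, still peaked in stable tumour 3 at 4.29 CPM, the tumour with the lowest melanocytic sum of its group (227 CPM).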
